A study of Mus musculus with 22 samples.

Results

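Leukemia inhibitory factor (LIF) is a cytokine of the interleukin-6 family that keeps mouse embryonic stem cells self-renewing. It binds a receptor made of LIFR and the shared signalling chain gp130 (gene Il6st), the JAK kinases bound to that receptor phosphorylate STAT3, and STAT3 then switches on genes that include its own feedback inhibitor SOCS3. The expression of 10 pathway genes was followed in a study returning mouse epiblast stem cells of the primed state (mEpiSCs) to a naive-like state. Not all of its treatments led to reversion. The genes were Lifr, Il6st, Osmr, Jak1, Jak2, Stat3, Socs3, Pim1, Pim3 and Bcl3. These genes were taken by symbol from a table of read counts for 34489 genes, and all 10 were present in it.

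The 22 bulk RNA-seq libraries fell into 6 groups, with 1 library of naive mESCs (the Rex1-GFP reporter line in 2iL, that is LIF with inhibitors of MEK and GSK3), 2 of primed mEpiSCs, 4 from day 8 (d8) and 4 from day 16 (d16) of treatment, and 4 and 7 libraries of reverted cells expanded in 2iL for 2 or 3 passages and for 10 passages. The primed lines were Oct4GIP, which carries an Oct4-driven eGFPiresPuro transgene and was kept in FGF2 and Activin A on fibronectin, and 129/MSM, kept in FGF2 and Activin A on mouse embryonic fibroblast (MEF) feeders. Primed Oct4GIP mEpiSCs were treated from day 0 to day 16 on MEFs, in Basal medium alone, in 2iL, or with AICAR or AICAR+LIF. The expanded libraries came from cultures first treated with AICAR, AICAR+LIF, A769662, A769662+LIF or metformin+LIF (all 3 compounds are AMPK activators), with AICAR and AICAR+LIF cultures from both lines at 10 passages. Every library was the only one of its line, medium and stage, so no test measured the spread between repeats of a culture. In the comparisons of states the spread was that between cultures of a group. In the LIF comparisons it was what remained after terms for day and medium, or for the pair.

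Total counts ranged from 438771 in AICAR+LIF d8 to 5290163 in Basal d16, with AICAR d8 and AICAR d16+10p of Oct4GIP having the next lowest totals. Naive markers (Zfp42, Esrrb, Dppa5a, Nr5a2, Klf2 and Tfcp2l1) summed to 4060 CPM (counts scaled to library size) in naive mESCs, 2870 to 4870 in reverted cells and 1.89 to 24.6 in primed and early libraries. Pou5f1, which encodes the pluripotency factor OCT4, was at 461 and 818 CPM in primed cells and 0.754 to 35.6 CPM in the 8 early libraries. Nanog was at 60.3 and 243 CPM in primed cells, 1.45 to 75.1 CPM at d8 and 3.01 to 29 CPM at d16, so its primed and d8 ranges overlapped. Sox2, also a pluripotency factor, was at 52.4 and 58.8 CPM in primed and 99 to 311 CPM in early libraries. All 12 feeder or fibroblast markers were detected in the d8 and in the d16 libraries, and their sum was 3530 to 3790 CPM at d8 and 5910 to 51000 CPM at d16, against 69 to 289 CPM in reverted and 104 to 684 CPM in primed cells. The marker Fbln1 alone was at 53.4 to 104 CPM in reverted cells of 2 or 3 passages, 90.9 to 266 CPM in those of 10 passages and 40.4 and 68 CPM in primed cells. In such bulk samples fewer cells of a type and less RNA per cell cannot be told apart, and the part of feeder or differentiated cells in any value of the early cultures was not tested.

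The effect of LIF was read first in the early cultures, where 4 matched pairs differed in its presence. These were 2iL against Basal and AICAR+LIF against AICAR, each at d8 and d16. Bcl3, which encodes an atypical IκB protein that binds NF-κB dimers, was the member with the largest difference. It was at 3.98 CPM in Basal d8 and 9.95 CPM in 2iL d8, and at 4.15 CPM in Basal d16 and 20 CPM in 2iL d16. With AICAR it was at 3.79 CPM without LIF and 9.89 CPM with LIF at d8, from only 4 and 5 counts, and at 5.93 CPM and 29.7 CPM at d16. All 4 libraries with LIF thus lay above all 4 without it, and the share of all genes that separate in this way was not counted. The feeder marker sum was close between the paired libraries at d8 (3530 CPM in Basal and 3710 CPM in 2iL, 3790 CPM in AICAR and 3680 CPM in AICAR+LIF). At d16, where the Bcl3 differences were largest, it was 5910 CPM in Basal and 51000 CPM in 2iL, and 17800 CPM in AICAR and 20300 CPM in AICAR+LIF, and its part in them was not tested.

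Across the 8 early libraries, with day and medium in the model, Bcl3 was 1.96 ± 0.33 (log2 fold change ± SE) higher with LIF. Its 95% interval ran from 1.18 to 2.75. This pooled difference, given below for other members too, is the mean over 2iL against Basal and AICAR+LIF against AICAR. In its 2iL part, the effect of LIF cannot be told apart from that of the MEK and GSK3 inhibitors. The adjusted p of Bcl3 in edgeR's quasi-likelihood test was 0.242 (unadjusted p = 0.000548), so Bcl3 did not pass the threshold of 0.05. In DESeq2 the same contrast gave 1.95 with an adjusted p of 0.0235, and over all alternatives for this gene the adjusted p ran from 0.00185 to 1. In the edgeR fit only 0.0129% of 15473 genes passed in this comparison, and both of them were chosen for mention after their values were seen. These were Ttr, encoding the carrier protein transthyretin, at -5.14 ± 0.30 (adjusted p = 0.00666), and C3, encoding the complement component, at 4.22 ± 0.30 (adjusted p = 0.0137).

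Socs3, the feedback inhibitor of the receptor complex, was higher with LIF in 4 of 4 pairs. Its levels were 46.0 CPM in Basal d8 and 112 CPM in 2iL d8, 324 CPM in Basal d16 and 425 CPM in 2iL d16, 40.7 CPM in AICAR d8 and 61.3 CPM in AICAR+LIF d8, and 74.6 CPM in AICAR d16 and 198 CPM in AICAR+LIF d16. The ranges of the LIF-containing and LIF-free libraries overlapped, with LIF-free Basal d16 the second highest of the 8. The difference was 0.89 ± 0.32 on the log2 scale (adjusted p = 0.893, unadjusted p = 0.0252).

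Stat3, the transcription factor of the pathway and also one of its own targets, was higher with LIF in 4 of 4 pairs by 0.41 to 0.80 on the log2 scale. It was at 226 and 301 CPM in Basal d8 and 2iL d8, 256 and 358 CPM in Basal d16 and 2iL d16, 94.7 and 164 CPM in AICAR d8 and AICAR+LIF d8, and 183 and 290 CPM in AICAR d16 and AICAR+LIF d16. Its fitted difference was 0.61 ± 0.18 (adjusted p = 0.693, unadjusted p = 0.0108). Pim1, a serine/threonine kinase induced by cytokines, was higher in 4 of 4 pairs but by as little as 0.02 in one of them, with a fitted difference of 0.51 ± 0.24 (adjusted p = 1). Il6st was higher in 3 of 4 pairs, with a fitted difference of 0.57 ± 0.28 (adjusted p = 1).

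**Figure D1:**
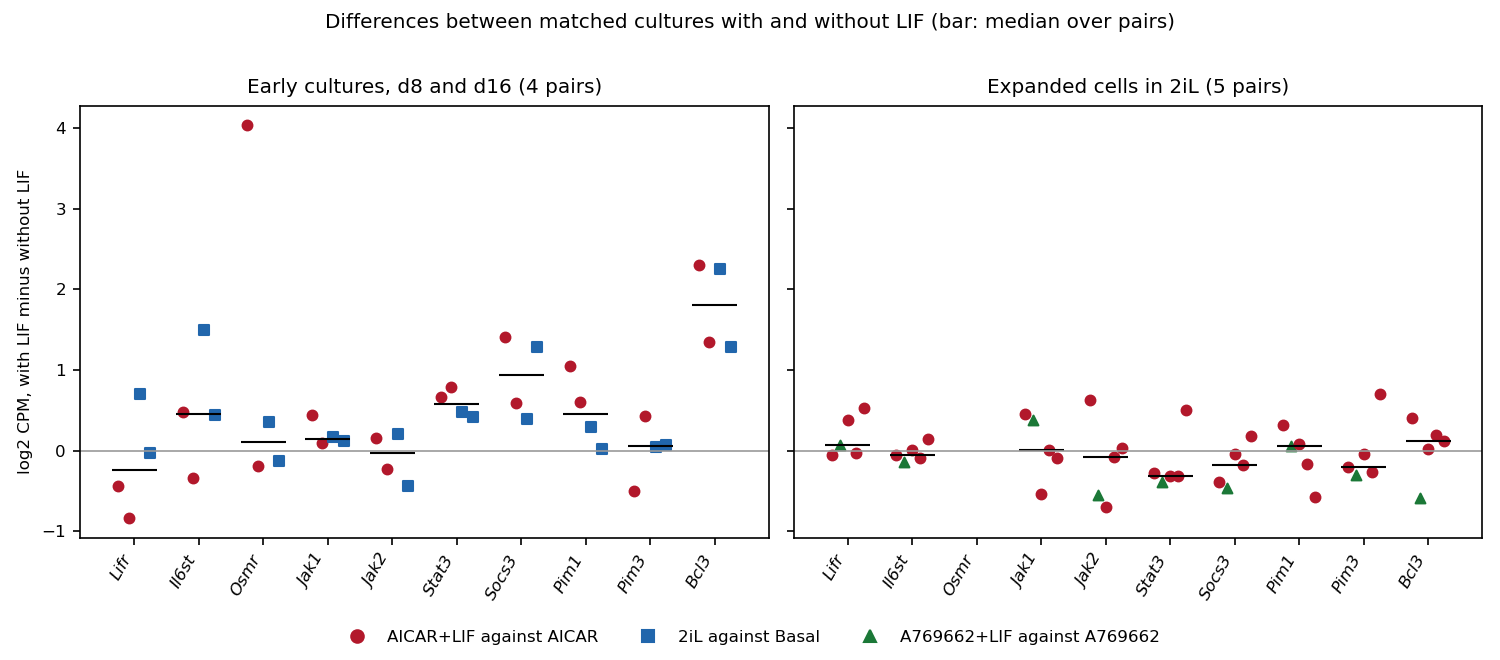
Difference in log2 CPM (0.5 counts added) between the LIF-containing and the LIF-free culture of each matched pair, for each gene on the x axis, with the median over pairs as a bar. In the early cultures all 4 Bcl3 points lie between 1.29 and 2.30, whereas in the expanded cells its 5 points lie between -0.58 and 0.40 (Osmr, at 0 to 5 counts there, is left out).

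Over the 10 members, none passed the adjusted threshold in this comparison, and the smallest adjusted p was that of Bcl3. An unadjusted p under 0.05 was reached by 3 of 10 members, all higher with LIF (Bcl3, Socs3 and Stat3), beside 4.98% of all genes tested. The median difference was 0.54 over the members and -0.02 over all genes. Of 12 feeder or fibroblast markers none passed, 8 were higher with LIF and their median was 0.63, and their part in the members' values was not tested. DESeq2 called 1 member and limma voom none. The alternatives of this comparison, both tools among them, called 0 to 252 of all genes, against 2 in the edgeR fit. Jak1 was higher with LIF in 4 of 4 pairs, by 0.09 to 0.44, with a fitted difference of 0.22. The fitted differences of Lifr (-0.08), Jak2 (-0.04) and Pim3 (-0.01) were closest to 0, and these 4 genes' 95% intervals lay within -0.57 to 0.71. Osmr, the receptor chain that pairs with gp130 for oncostatin M, had 1 pair that set its value, 3 counts in AICAR d16 against 47 in AICAR+LIF d16, and differed by at most 0.35 in the other pairs.

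The 2 settings in which LIF was added were then compared. With AICAR, Bcl3 differed by 2.07 ± 0.49, Socs3 by 1.01 ± 0.47 and Stat3 by 0.75 ± 0.26 (edgeR adjusted p = 1 for each). No gene passed in that comparison (0% of 15473 genes), 2.29% had an unadjusted p under 0.05, and so did 2 of 10 members, Bcl3 and Stat3. Between 2iL and Basal, Bcl3 differed by 1.86 ± 0.45 (adjusted p = 0.346), Il6st by 1.07 ± 0.38 (adjusted p = 0.639), Socs3 by 0.76 ± 0.42 and Stat3 by 0.46 ± 0.25 (adjusted p = 0.842 for both). There 0.0129% of genes passed, none of them a member, and 2 of 10 members (Bcl3 and Il6st) had an unadjusted p under 0.05 beside 6.78% of all genes. DESeq2 and limma voom called no member in either setting. When only the 4 AICAR and AICAR+LIF libraries entered the edgeR fit, Bcl3 (2.17, adjusted p = 0.00877), Socs3 (1.21, adjusted p = 0.00388) and Stat3 (0.74, adjusted p = 0.0143) passed, in a fit that called 320 genes. Over all alternatives of the comparison with AICAR the adjusted p of each of these 3 genes reached 1. Leaving out 1 library moved Socs3 with AICAR from 0.32 (without AICAR d16) to 1.66 (without AICAR d8), and Il6st in 2iL from 0.42 (without 2iL d16) to 1.62 (without 2iL d8). Since 2iL also brings inhibitors of MEK and GSK3, their effect and that of LIF cannot be told apart in the second setting.

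The difference between these settings was tested directly. It gave 0% of genes past the adjusted threshold and 4.02% with an unadjusted p under 0.05, with no member among them in edgeR, and no member called by DESeq2 or limma voom. For Bcl3 the LIF difference with AICAR exceeded that of 2iL over Basal by 0.22, with an interval from -1.36 to 1.79. For Socs3 the excess was 0.25 with an interval from -1.24 to 1.74, so differences of more than 1 log2 unit in either direction were compatible with these libraries. Lifr and Il6st gave -0.94 and -0.997 (unadjusted p = 0.055 and 0.107), with Il6st at 1240 CPM in 2iL d16 and 439 CPM in Basal d16 but 589 CPM in AICAR+LIF d16 and 424 CPM in AICAR d16. In the same d16 libraries the feeder marker sum was 51000 CPM in 2iL, 5910 CPM in Basal, 20300 CPM in AICAR+LIF and 17800 CPM in AICAR, and its part in the Il6st values was not tested.

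In the expanded reverted cells, 5 pairs asked whether LIF during the first 16 days left a trace after growth in 2iL, where all cultures received LIF. No such difference was detected in the members. Bcl3 differed by 0.01 ± 0.14 (95% interval -0.31 to 0.34), Socs3 by -0.17 ± 0.12 (-0.44 to 0.10) and Stat3 by -0.16 ± 0.13 (-0.46 to 0.13). The 9 members tested lay between -0.17 and 0.17, while Osmr, with 0 to 5 counts in these libraries, was removed by the filter on low counts. In edgeR 0% of 12821 genes passed, 2.42% had an unadjusted p under 0.05 and none of the 9 members did. DESeq2 and limma voom called no member either.

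Among the early pairs, 2iL against Basal again held the MEK and GSK3 inhibitors besides LIF, so their effects cannot be told apart there. The early minus the expanded LIF difference was largest for Bcl3, at 1.97 ± 0.31 on the log2 scale (edgeR unadjusted p = 2.47e-05, adjusted p = 0.0977). Socs3 followed at 1.12 ± 0.24 (adjusted p = 0.425), Stat3 at 0.74 ± 0.19 (adjusted p = 0.693) and Il6st at 0.63 ± 0.27 (adjusted p = 0.965). No member passed, beside 0.0127% of 15799 genes, and 4 of 10 members had an unadjusted p under 0.05 beside 5.15% of all genes. In DESeq2 Bcl3 (adjusted p = 0.00377) and Socs3 (adjusted p = 0.0346) passed, and limma voom called none. The alternatives of this comparison, DESeq2 among them, called 0 to 167 of all genes, against 2 in the edgeR fit. Over the alternatives the adjusted p of Bcl3 ran from 1.97e-05 to 0.781, and that of Socs3 from 0.000445 to 0.904.

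The members are spread over the genome (GRCm38). Lifr (15:7090614-7197489) and Osmr (15:6813577-6874969) share chromosome 15 with Pim3 (15:88862186-88865726), and Stat3 (11:100885098-100939540) and Socs3 (11:117966079-117970047) share chromosome 11. Il6st lies at 13:112464070-112510086, Jak1 at 4:101152367-101265282, Jak2 at 19:29251828-29313080, Pim1 at 17:29490753-29496112 and Bcl3 at 7:19808462-19822770.

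The regions around the start sites of Bcl3 and Socs3 are shown because these members gave the lowest unadjusted p for the early minus the expanded LIF difference. Both come from RefSeq (GRCm38.p6), run from 250 bases before the start site to 50 bases from it on, and are written 5′ to 3′ on the minus strand, which both genes use. All 10 members had such a region in the table, in 12 windows. Capitals mark the motif TTCNNNGAA, the general STAT site, which reads the same on both strands.

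Socs3: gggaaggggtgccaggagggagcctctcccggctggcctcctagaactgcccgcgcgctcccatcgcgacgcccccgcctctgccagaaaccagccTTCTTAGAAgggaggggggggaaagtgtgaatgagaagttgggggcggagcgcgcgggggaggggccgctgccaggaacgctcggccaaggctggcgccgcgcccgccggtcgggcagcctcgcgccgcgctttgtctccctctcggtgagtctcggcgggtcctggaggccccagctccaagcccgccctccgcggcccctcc

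Bcl3: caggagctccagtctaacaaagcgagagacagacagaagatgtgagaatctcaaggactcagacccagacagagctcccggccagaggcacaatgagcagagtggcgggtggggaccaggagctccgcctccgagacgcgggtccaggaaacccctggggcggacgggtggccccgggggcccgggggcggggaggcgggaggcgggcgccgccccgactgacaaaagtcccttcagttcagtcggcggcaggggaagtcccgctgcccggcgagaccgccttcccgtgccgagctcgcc

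The Socs3 window (chr11:117969317-117969616) held 1 match, TTCTTAGAA, whose first base lay at position -154 from the start site. No match lay in the Bcl3 window (chr7:19822706-19823005) or in those of the other 8 members. The motif was found in at least 1 window of 9.55% of 27025 mouse genes, and its narrower form TTCCNGGAA, which is contained in it, in 1.35% of genes and in no member. A match is a description of letters in this window and says nothing of binding.

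Next, the levels of the members were compared between states. Naive and reverted cells were in 2iL, which holds LIF, and primed cells in FGF2 and Activin A. Cell state and medium thus cannot be told apart in these comparisons. Lifr and Il6st, the chains of the LIF receptor, were low in primed cells and higher in naive and reverted cells. Lifr was at 8.46 CPM in primed Oct4GIP and 22.4 CPM in primed 129/MSM, at 62.7 CPM in naive mESCs, and at 33 to 81.3 CPM in the 11 reverted libraries (median 40.0). Il6st was at 40.8 and 51.5 CPM in primed, 118 CPM in naive and 101 to 209 CPM in reverted cells (median 139). For both genes every reverted library lay above both primed libraries. Here and below, the share of all genes without overlap between groups was not counted, so a lack of overlap only describes these libraries. Per kilobase of exon sequence, a scale on which genes can be compared, the median level in reverted cells was 12.5 CPM for Il6st and 3.71 CPM for Lifr. Against primed cells, the reverted cells at 10 passages were 1.72 ± 0.42 higher for Lifr (adjusted p = 0.0027) and 1.77 ± 0.35 higher for Il6st (adjusted p = 0.000465).

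In Lifr this call was lost without primed Oct4GIP, where the difference was 1.20 (adjusted p = 0.087). Both receptor genes were among 9 of 10 members that passed in this comparison, 6 higher and 3 lower, beside 36.6% of 18739 genes. The median was 1.47 over the members and -0.01 over all genes. Osmr was low throughout, with 30 counts in primed 129/MSM, 1 count in primed Oct4GIP, 0 in naive mESCs and 0 to 5 in the reverted libraries. Its fitted difference of -3.28 ± 0.93 (adjusted p = 0.00861) rested on the primed 129/MSM library and was 0.33 without it. The reverted 129/MSM libraries were at 0.408 and 1.96 CPM and the primed library of that line, kept on MEF feeders, at 9.47 CPM. The feeder marker sum was 134 and 107 CPM in these reverted libraries and 684 CPM in the primed one. Fbln1, 1 of its 12 markers, gave 118 and 90.9 CPM of the reverted sums and 40.4 CPM of the primed one. Of the 12 markers, 9 were called lower and 1 higher in reverted cells at 10 passages than in primed cells. The part of feeder cells in the Osmr values was not tested. No fold is given for Oct4GIP, where primed and reverted libraries held 0 to 2 counts.

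Among the kinases, Jak1 and Jak2 fell, the reverse of Lifr and Il6st. JAK1 and JAK2 bind the gp130 complex and phosphorylate it after LIF has bound. Jak1 was at 75.0 and 97.6 CPM in primed, 64.9 CPM in naive and 38.3 to 74.9 CPM in reverted cells, a difference at 10 passages of -0.59 ± 0.20 (adjusted p = 0.0286). Jak2 was at 22.4 and 24.3 CPM in primed, 10.6 CPM in naive and 6.54 to 24.1 CPM in reverted cells, a difference of -0.76 ± 0.25 (adjusted p = 0.0207). The Jak2 call was lost when either primed library was left out (-0.82 and -0.71), and the Jak1 call without primed 129/MSM, where the difference was -0.39 (adjusted p = 0.308). With counts thinned to the smallest library total, neither passed.

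Stat3 was at 36.8 and 94.1 CPM in primed, 133 CPM in naive and 87.4 to 187 CPM in reverted cells, so the lowest reverted library lay below the higher primed one. It was higher at 10 passages by 1.22 ± 0.36 (adjusted p = 0.0112). This value was 0.70 (adjusted p = 0.242) without primed Oct4GIP. The feedback inhibitor Socs3 was at 5.52 and 16.4 CPM in primed, 47.8 CPM in naive and 24.4 to 66.1 CPM in reverted cells, without overlap, and was 1.75 ± 0.58 higher (adjusted p = 0.0221, and 0.255 without primed Oct4GIP, where the difference was 1.19).

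Of the other targets, Bcl3 and Pim1 rose most. Bcl3 was at 0.368 CPM (1 count) in primed Oct4GIP and 2.53 CPM (8 counts) in primed 129/MSM, at 55.2 CPM in naive mESCs and at 21.6 to 65.2 CPM in the reverted libraries. Its difference at 10 passages was 4.93 ± 0.80 (adjusted p = 6.54e-05), and ran from 4.20 without primed Oct4GIP to 6.83 without primed 129/MSM. Pim1 was at 29.1 CPM in primed Oct4GIP and 10.4 CPM in primed 129/MSM, at 155 CPM in naive and at 73.7 to 156 CPM in reverted cells, a difference of 2.81 ± 0.37 (adjusted p = 5.03e-06) that was 3.72 without primed Oct4GIP and 2.24 without primed 129/MSM. Both genes passed in all these fits. Neither gene overlapped between the states. Pim3, a kinase of the same family, was at 71.7 and 24.6 CPM in primed, 85.6 CPM in naive and 34.9 to 122 CPM in reverted cells, and its difference of 0.74 ± 0.41 did not pass (adjusted p = 0.173). Without primed Oct4GIP it was 1.70 (adjusted p = 0.029), and without primed 129/MSM 0.15. Per kilobase, the median in reverted cells was 37.1 CPM for Pim1, 32.8 CPM for Pim3, 15.8 CPM for Socs3 and 15.6 CPM for Bcl3.

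**Figure D2:**
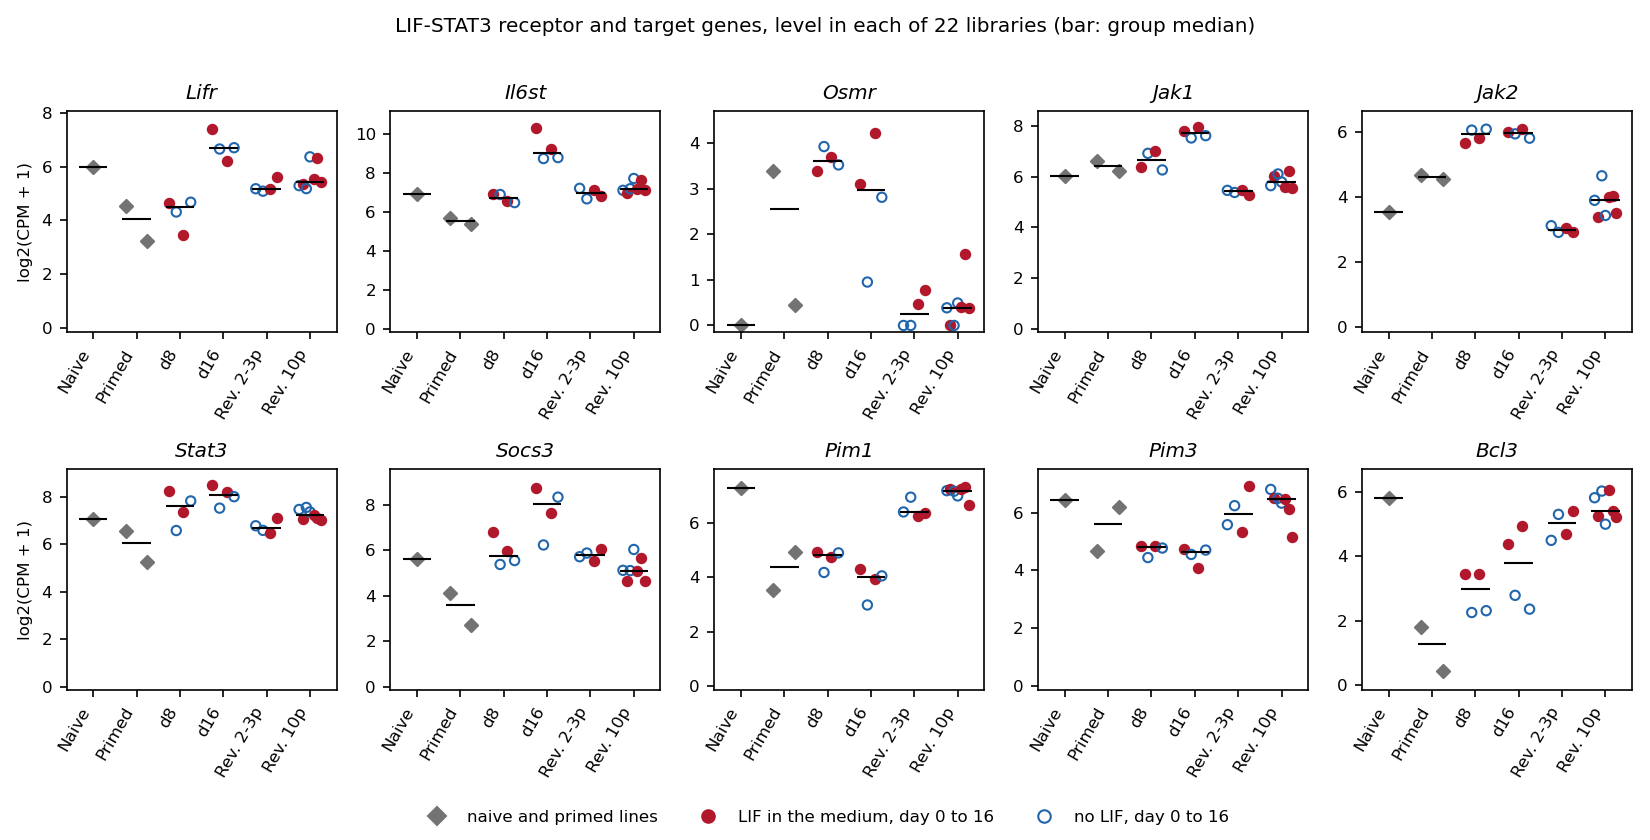
Level of each member in each of the 22 libraries as log2(CPM + 1), by state on the x axis, with the group median as a bar and the colour showing whether LIF was present from day 0 to 16. Lifr, Il6st, Socs3, Pim1 and Bcl3 lie higher in every reverted library than in both primed ones, and Pim1 and Pim3 are low in the d8 and d16 cultures. The share of all genes that separate the states in this way was not counted.

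Between the reverted cells of 10 passages and those of 2 or 3 passages, 1 of 10 members passed, beside 9.35% of all genes. Jak2 was at 6.54 to 7.69 CPM in the 4 libraries of 2 or 3 passages and at 9.42 to 24.1 CPM in the 7 libraries of 10 passages, without overlap, and the difference was 0.97 ± 0.22 (adjusted p = 0.00919). With counts thinned to the smallest library total it was 0.61 (adjusted p = 0.501). Jak1 (0.48 ± 0.17, adjusted p = 0.0867), Pim1 (0.62 ± 0.23, adjusted p = 0.105) and Stat3 (0.52 ± 0.26, adjusted p = 0.246) did not pass. When the fit held only these 11 libraries, they passed along with Jak2. The alternatives of this comparison, that fit among them, called 586 to 3002 of all genes, against 1753 in the fit of all 22 libraries.

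The early cultures, which had left the primed medium but were not yet expanded in 2iL, showed another profile. Against primed cells 8 of 10 members passed, 7 higher and 1 lower, beside 37.5% of 18739 genes. Here the comparison shares its 2 primed libraries with that of the reverted cells. Socs3 was 3.54 ± 0.63 higher (adjusted p = 0.000214), with 40.7 to 425 CPM in the 8 early libraries. Il6st was 2.53 ± 0.36 higher (adjusted p = 3.03e-05), Stat3 1.82 ± 0.37 (adjusted p = 0.000779), Lifr 1.62 ± 0.42 (adjusted p = 0.00454) and Bcl3 2.67 ± 0.79 (adjusted p = 0.0118). Jak2, at 48.9 to 67.4 CPM, was 1.36 ± 0.27 higher (adjusted p = 0.000556) and Jak1, at 76.4 to 251 CPM, 0.76 ± 0.22 (adjusted p = 0.00893).

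Pim3, at 15.8 to 27.8 CPM, had a difference of -1.001 ± 0.38 (adjusted p = 0.0439) and lay close to primed 129/MSM (24.6 CPM) but below primed Oct4GIP (71.7 CPM). Without primed Oct4GIP its difference was -0.04 (adjusted p = 0.995). Pim1, at 6.87 to 29.0 CPM, differed by -0.06 ± 0.32 (adjusted p = 0.929). Osmr, at 0.936 to 17.7 CPM, differed by 0.92 ± 0.87 (adjusted p = 0.428), but without primed 129/MSM by 4.49 (adjusted p = 0.0375), against the 1 count of primed Oct4GIP. Leaving out primed Oct4GIP reduced the count of members called to 4 (Il6st, Jak2, Stat3 and Socs3), with Lifr at 1.10, Bcl3 at 1.94 and Jak1 at 0.58. With only the LIF-free early cultures Bcl3 was 1.52 (adjusted p = 0.0505), and its call was also lost in limma voom (adjusted p = 0.0766) and with only the 10 libraries compared (adjusted p = 0.0655). Jak1, Jak2 and Osmr were higher in the 8 early libraries than in every reverted library, except for Osmr in AICAR d16 (3 counts). Pim1 and Pim3 were lower in the 8 early libraries than in every reverted library. The share of all genes that separate these groups was not counted.

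**Figure D3:**
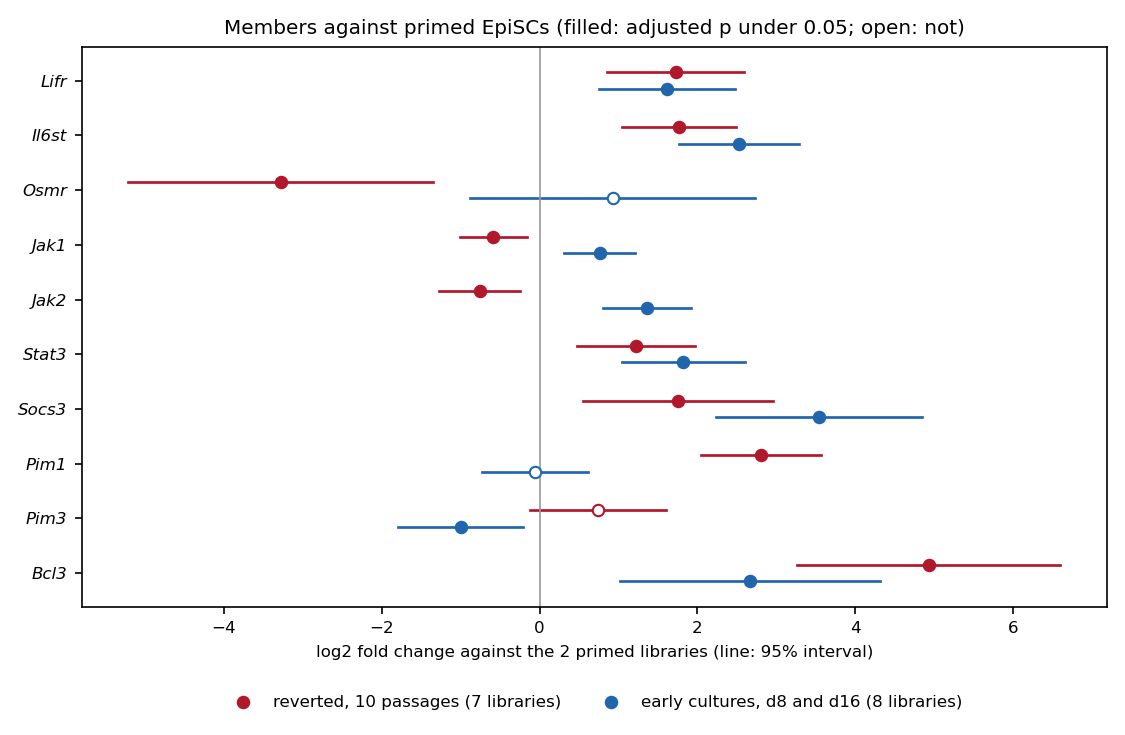
Log2 fold change against the 2 primed libraries on the x axis, with its 95% interval, for the reverted cells at 10 passages and for the early cultures (filled points have an adjusted p under 0.05). Jak1 and Jak2 lie below 0 in reverted cells and above 0 in early cultures, and Pim1 is at 2.81 in reverted cells and -0.06 in early cultures.

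Within the early cultures, the levels moved with time, a comparison added after the values were seen. Lifr was at 9.89 to 24.6 CPM at d8 and 73.4 to 167 CPM at d16, Il6st at 88.3 to 120 CPM and 424 to 1240 CPM, and Jak1 at 76.4 to 129 CPM and 185 to 251 CPM, so that the days did not overlap for these genes. In the fit with medium, Il6st rose by 2.55 ± 0.29 (adjusted p = 0.00286), Lifr by 2.49 ± 0.21 (adjusted p = 0.00151), Socs3 by 1.86 ± 0.33 (adjusted p = 0.0106) and Jak1 by 1.10 ± 0.21 (adjusted p = 0.0138). Pim1 decreased by 0.89 ± 0.24 (adjusted p = 0.0382), a call that was lost when any 1 of the 8 libraries was left out (adjusted p from 0.0689 to 0.131). The Jak1 call was lost without either Basal library (0.99, adjusted p = 0.0527 and 0.0555). Together 5 of 10 members passed, beside 24.3% of 15473 genes. Over the same days, 8 of 12 feeder or fibroblast markers rose and none fell, and their part in these changes was not tested. Bcl3 changed by 0.84 ± 0.34 (adjusted p = 0.109), with 0.03 in Basal medium, 0.51 in AICAR, 0.995 in 2iL and 1.46 in AICAR+LIF.

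**Figure D4:**
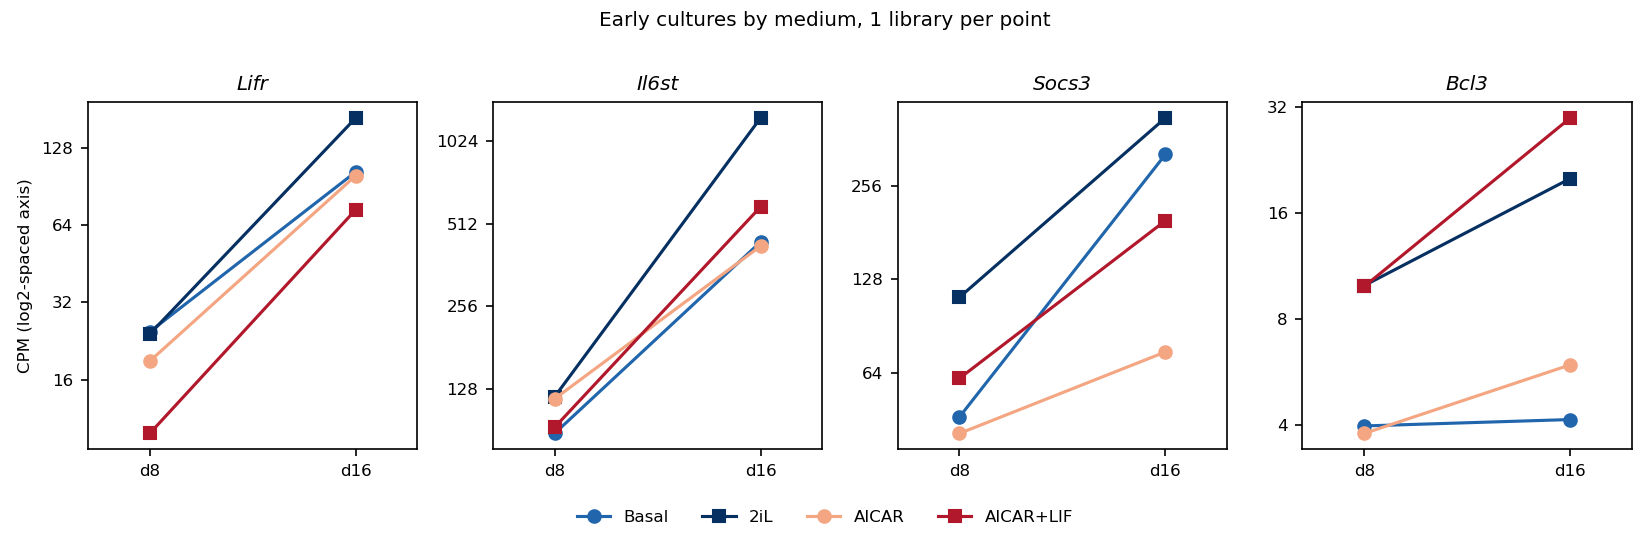
Level in CPM on a log2-spaced axis at d8 and d16 for Lifr, Il6st, Socs3 and Bcl3, with 1 library per point and lines joining the libraries of each medium. Lifr and Il6st rise in all 4 media, Socs3 reaches 324 CPM in LIF-free Basal d16, and the 2 LIF-containing media lie above the 2 LIF-free ones for Bcl3 on both days.

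The other genes of the pathway were described by lists, whose counts stand beside 36.6% of all genes called between reverted cells at 10 passages and primed cells and 37.5% between early cultures and primed cells. Shares near these say nothing particular to a list. Among the ligand genes, Osm was higher and Clcf1 and Il11 were lower in reverted cells at 10 passages than in primed cells. Osm, which encodes oncostatin M, had 0 counts in all 8 early libraries and in primed Oct4GIP, 2 counts in primed 129/MSM, 55 in naive mESCs, 4 to 28 in reverted cells of 2 or 3 passages and 45 to 120 in those of 10 passages. It was also 2.47 higher at 10 than at 2 or 3 passages (adjusted p = 0.00196). Clcf1 (-3.20, adjusted p = 0.0486) and Il11 (-2.95, adjusted p = 0.00438) encode ligands of related receptors. Both were near the limit of detection, with at most 3 counts in any reverted library and at most 13 in a primed one. Lif itself had 5 to 88 counts in each library and did not pass in any of the 10 comparisons. Il6 had at most 3 counts in any library.

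Of 5 other receptor genes, 4 were tested against primed cells. Il6ra, the interleukin-6 receptor, was 2.64 ± 0.69 higher in reverted cells (adjusted p = 0.00498), while Il11ra1 (-3.76) and Cntfr (-3.54), receptors for interleukin-11 and ciliary neurotrophic factor, were lower. Among 8 other JAK and STAT genes 3 were higher (Stat4 at 2.73, Jak3 at 1.78 and Tyk2 at 0.74) and 1 was lower (Stat5b at -1.57), with a median of 0.53. Among 12 negative regulators none was higher and 3 were lower, namely Cish (-2.49), Socs5 (-2.11) and Ptpn11 (-0.51), with a median of 0.18. Cish and Socs5 belong to the family of Socs3, which was higher.

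Of 6 naive-state targets 5 were higher in reverted than in primed cells, with Tfcp2l1 at 6.49, Klf4 at 6.09 and Gbx2 at 5.13. Pramel7, with 0 counts in both primed libraries and 5 to 34 counts at 10 passages, was also called higher, and Myc, a growth regulator, was lower at -2.39. Of 12 general targets, genes that STAT3 is known to induce in many cell types, none was higher and 3 were lower, Cebpd (-3.39), Cebpb (-2.94) and Junb (-1.46), which encode transcription factors, with a median of -0.13. In the early cultures Gbx2 (4.54) and Klf4 (3.89) were higher than in primed cells whereas Tfcp2l1 (-2.31) and Klf5 (-1.12) were lower, and of the general targets Fos (4.86), Junb (1.99) and Bcl6 (1.92) were higher. Socs1 (2.50), a second feedback inhibitor, was 1 of 5 negative regulators that were higher there, with Ptpn6 (-1.83) and Ptpn2 (-0.58) lower.

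No gene of these 6 lists passed in the comparison of LIF-containing with LIF-free early cultures. The median difference was 0.49 over 12 general targets, 0.04 over 12 negative regulators and -0.18 over 5 naive-state targets tested. Lcn2, which encodes lipocalin 2 and was singled out after its values were seen, had 0 counts in the 4 d8 libraries. At d16 it had 5 counts in Basal and 726 in 2iL (0.942 and 291 CPM), and 11 in AICAR and 251 in AICAR+LIF (3.43 and 94.5 CPM). Its adjusted p was 0.135. Saa3, an acute-phase gene also named after its values were seen, was at 3.58 CPM in Basal d16, 107 CPM in 2iL d16, 1.87 CPM in AICAR d16 and 10.9 CPM in AICAR+LIF d16 (adjusted p = 0.195).

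Finally, the members were set against each other over the 22 libraries, in which culture state and depth are shared, so the correlations are descriptions only. Lifr and Il6st had a Pearson r of 0.85, Socs3 and Il6st 0.84, Socs3 and Stat3 0.82, Jak1 and Jak2 0.87, and Pim1 and Pim3 0.85, whereas Pim1 and Jak1 had -0.80. The gene most like Lifr among 10852 genes was Sptbn1 (r = 0.90), that most like Stat3 was Atp9a (0.91) and that most like Socs3 was Qk (0.89), with Il6st the third for Socs3. Cdh2 was most like Osmr (0.92).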

How the data were processed

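Bulk poly(A) RNA of 22 cultures was made into stranded libraries and read as single-end reads. The authors mapped these with Bowtie2 (2.2.5) to the GRCm38 transcriptome and deposited raw counts per gene, with no normalization. Transcript mapping can split reads between similar genes, and the low totals (438771 to 5290163 counts per library) limit the precision of low genes, so that intervals cover the spread between cultures and counting error. The 10 members and the pathway lists were chosen with earlier results of these data known.

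Counts were normalized by TMM, filtered with filterByExpr and tested in R 4.3.3 by edgeR 4.0.16 (quasi-likelihood F-test), with Benjamini-Hochberg adjustment over all genes tested and a threshold of 0.05. The early LIF comparisons used the 8 early libraries (day and medium), the expanded one the 10 libraries of 5 pairs, and the comparisons of states all 22 libraries in 6 groups. The script was tested on simulated data. DESeq2 1.42.0, limma voom 3.58.1, other normalizations, filters, depths and left-out libraries were tried. All members were named, and of each pathway list the called genes with the largest changes, at most 4 per comparison, with exceptions stated. Each library was the only one of its line, medium and stage, so p-values measure the spread between differing cultures. Levels are CPM after TMM, with 0.5 counts added for differences between paired libraries. A result of the ligand list, and the list's counts, are not reported here.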

Additional observations from a re-analysis of the deposited data

Results flagged for a closer look

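Of 40 combinations of a member and a group of 4 to 7 libraries, 3 held a library far from the others, where chance alone gives about 1 in 20. Jak2 was at 24.1 CPM (41 counts) in the AICAR d16+10p library of Oct4GIP, above 15.3 CPM in the next and 9.42 CPM in the lowest of the 7 libraries at 10 passages. Lifr was at 47.8 CPM in AICAR+LIF d16+3p, above 35.2 CPM in the next and 33 CPM in the lowest of the 4 libraries of 2 or 3 passages. Osmr was at 1.96 CPM (5 counts) in AICAR+LIF d16+10p of 129/MSM, with 0.408 CPM in the next of 7. In edgeR no difference of a member between the LIF contrasts passed, whereas DESeq2 called Bcl3 (adjusted p = 0.00377) and Socs3 (adjusted p = 0.0346) for early minus expanded. The alternatives of that comparison, DESeq2 among them, called 0 to 167 of all genes.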

How the results depend on the processing

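Of 906 member values under 181 alternatives, 818 kept their direction and their side of the threshold, 53 lost a call, 19 gained one and 16 changed sign. These values belong to 50 chosen results of a member in a comparison, not to every member in each comparison. None was taken for the difference between the 2 settings in which LIF was added. With AICAR, LIF called 3 members when only the AICAR and AICAR+LIF libraries were fitted, a fit that called 320 genes over all. The comparison of LIF-containing with LIF-free early cultures called 1 member (Bcl3) in DESeq2 and with no filter on low counts. The early minus the expanded LIF difference called 2 members in DESeq2 and 3 with no filter. In expanded cells the Bcl3 difference was -0.008 in limma voom, -0.079 with only Oct4GIP pairs, -0.067 with only the pairs at 10 passages, and -0.079 to 0.169 with 1 library left out. Reverted cells at 10 passages against primed cells called 4 members with 129/MSM only and 6 to 9 with 1 library left out, where Osmr ran from -4.195 to 0.325. Against 2 or 3 passages the count was 2 in limma voom, 0 with thinned counts (edgeR, against 1 with all counts) and 4 with only the 11 libraries compared. Early cultures against primed cells called 4 (without primed Oct4GIP) to 9 members (without primed 129/MSM), and Pim1 was 0.009 in DESeq2, 0.123 in limma voom, 0.005 with at least 10 counts in every library and -0.677 to 0.848 with 1 library left out. Day 16 against day 8 called 3 to 4 members with 1 library left out. That comparison, and the alternative without the 3 libraries of lowest total, were chosen after seeing the data. The cause of these changes was not tested.

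Over all genes, the number called ran from 0 to 320 for LIF with AICAR (0 in the reported fit), 0 to 386 for 2iL against Basal (2), 0 to 252 for LIF-containing against LIF-free (2), 0 to 120 for the difference of these settings (0), 0 to 44 in expanded cells (0) and 0 to 167 for early minus expanded (2). It ran from 2880 to 7072 for reverted cells at 10 passages against primed (6863), 586 to 3002 against 2 or 3 passages (1753), 3477 to 7441 for early against primed (7032) and 1462 to 4773 for the days (3755). In AICAR+LIF d8, 3 counts are worth 5.93 CPM, so the d8 values of Bcl3 and Lifr there are near the limit of detection.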

Other observations

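Between d8 and d16, in the comparison added after the values were seen, 6 of 12 general targets rose and none fell (beside 24.3% of all genes called), with Cebpd at 4.49 and Saa3 at 3.88 (log2 fold change), Fos at 2.40 and Lcn2, which had no count at d8, at 5 to 726 counts. Among 12 negative regulators Socs1 rose (2.08), and among 8 other JAK and STAT genes Stat5a (2.16) and Stat6 (1.056) did. Il11ra1 (2.43) and Il6ra (2.18) rose and Cntfr (-0.64) fell. Of the naive-state targets Klf5 (1.88), Klf4 (1.28) and Myc (1.10) rose, and of the ligands Clcf1 (2.80). Endothelial markers summed to 3.96 to 12.3 CPM at d8 and 34.6 to 226 CPM at d16, and their part in these changes was not tested.

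Between 10 and 2 or 3 passages, Stat5b (1.31), Stat2 (0.79) and Tfcp2l1 (0.96) were higher and Cntfr (-1.97) and Myc (-1.88) lower, each past the adjusted threshold in edgeR. These groups also differed in line and activator.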
